A study of Brassica napus with 22 samples.

Results

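Copies of 8 Arabidopsis regulators of seed coat pigment, mucilage and epidermal fate were followed through the globular-stage seed of oilseed rape (Brassica napus) cultivar Topas, an allotetraploid with an A and a C subgenome. The members were every gene whose best Arabidopsis protein match, as given by the authors, was TT2 (AT5G35550), TT8 (AT4G09820), TTG1 (AT5G24520), TT1 (AT1G34790), TTG2 (AT2G37260), EGL3 (AT1G63650), MYB5 (AT3G13540) or MYB61 (AT1G09540). This gave 34 copies, 15 on the A and 19 on the C subgenome, of 101040 genes in the deposited table. Of these, 21 copies had at least 1 FPKM (fragments normalised for transcript length and for the sequencing total) in at least 2 of the 8 columns and were compared, 13 were not, and 5 were listed at 0 in all 8 columns.

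RNA was taken from 7 dissected compartments of seeds grown under long days. Maternal tissue was represented by the chalazal proliferating tissue (3 libraries), inner seed coat (3) and outer seed coat (2), and filial tissue by the embryo proper (2), the micropylar endosperm (4), the peripheral endosperm (2) and the chalazal endosperm (3). Whole seeds gave a further 3 libraries. The deposited table holds 1 combined column of whole-number FPKM per group, so no spread between libraries could be computed, no difference could be tested, and read depth is unknown. A level of 1 or 2 FPKM is therefore close to the smallest step the table can show.

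In Arabidopsis, the MYB protein TT2, the basic helix-loop-helix (bHLH) protein TT8 and the WD-repeat protein TTG1 form a complex that switches on late steps of proanthocyanidin synthesis, the tannins that turn the seed coat brown, in the innermost seed coat layer. EGL3 is a bHLH protein that overlaps in function with TT8, and TT1 is a zinc finger protein needed for pigment in the same layer. The WRKY factor TTG2 acts downstream of TTG1 in pigment, mucilage and hair formation, and MYB5 and MYB61 act in the mucilage-making outer epidermis. These roles are known from Arabidopsis and are assigned here by protein match only.

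The dissection was checked with marker genes. Summed over copies, the inner seed coat markers BAN, TT16, TT12 and TT10 had 1836 FPKM in chalazal proliferating tissue, 1155 in inner seed coat and 18 in outer seed coat, against 3 to 24 in the filial compartments. TT16 alone held 1768, 1112 and 16 FPKM of these maternal sums, in that order. TT12 had 6, 36 and 0 FPKM in the same compartments and TT10 had 6, 6 and 2. BAN, the reductase that makes the proanthocyanidin building block, had 56 FPKM in chalazal proliferating tissue but only 1 in inner seed coat. Of the outer seed coat markers, GL2 was at 47 FPKM in outer seed coat and at 2 or less in the other 6 compartments, whereas PER36 was at 0 there and MUM4 and SBT1.7 were higher in other compartments. Embryo markers reached at most 3 FPKM and endosperm markers at most 28 FPKM in a maternal compartment. The micropylar endosperm column also held markers of other cell types. Phloem markers of the vascular tissue summed to 317 FPKM there, of which PP2-A1, a phloem lectin, had 265, APL 27 and SUC2 25, against 0 to 18 FPKM in the other 6 compartments. Embryo markers summed to 97 FPKM in it, against 462 in embryo proper. LEC2 was at 62 FPKM in it, against 39 in embryo proper, and LEC1 at 35 against 274. The embryo markers FUS3 and WOX2 were at 0 in it, against 57 and 92 in embryo proper. In the same column, rRNA and organelle genes held 36.9% of all FPKM, against 4.16% to 16% in the other 6 compartments.

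**Figure D1:**
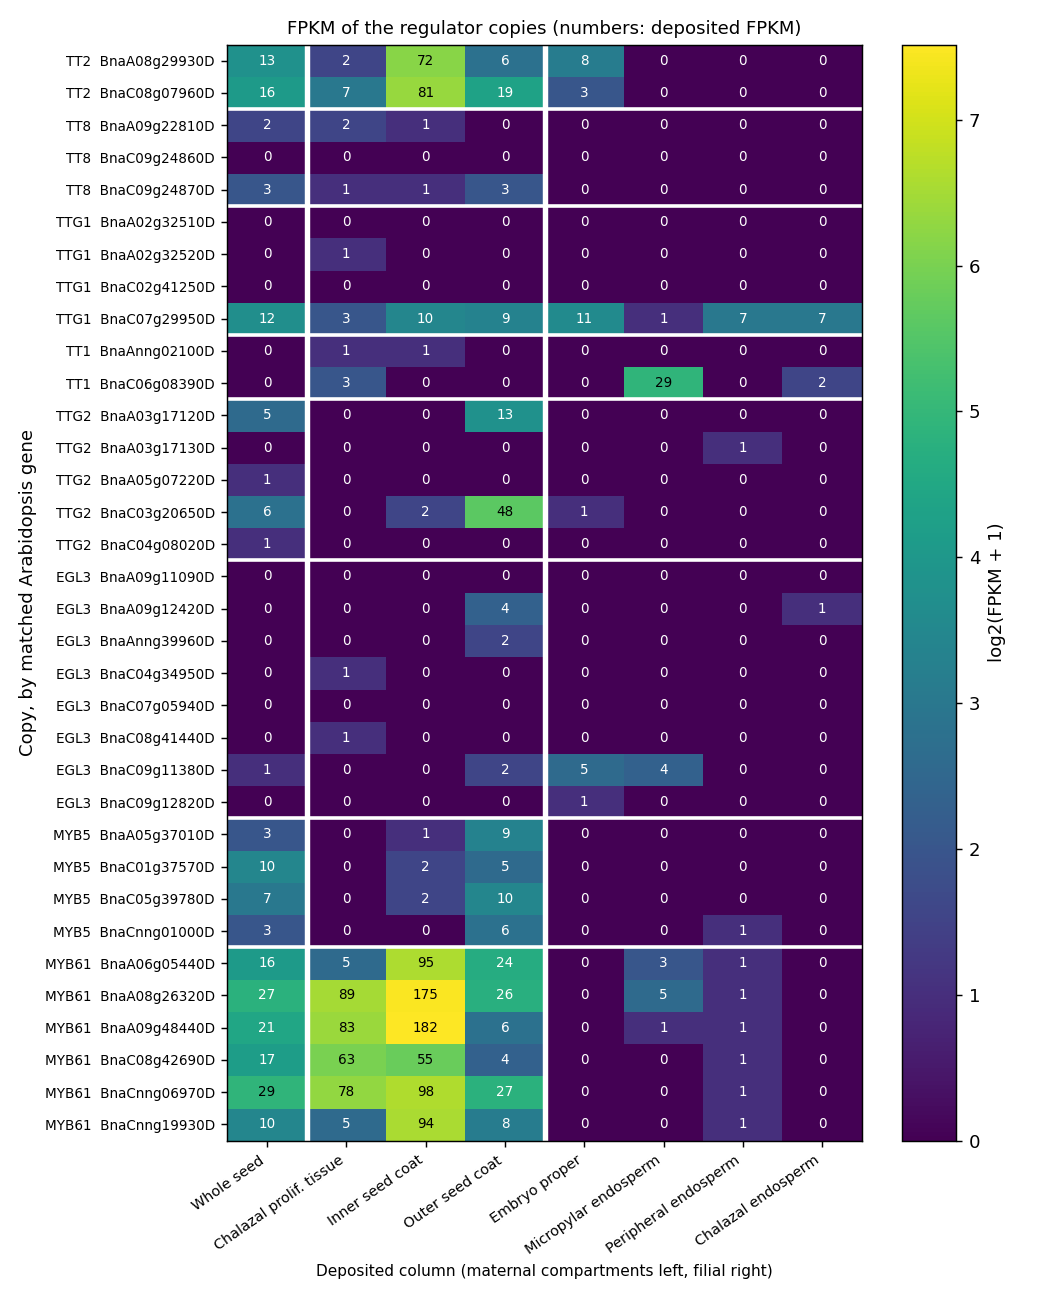
Deposited FPKM of all 34 copies in the whole seed and 7 compartments, grouped by matched Arabidopsis gene; colour is log2(FPKM + 1) and the number in each cell is the FPKM. MYB61 and TT2 copies are highest in the inner seed coat or chalazal proliferating tissue, MYB5 copies and the 2 leading TTG2 copies in the outer seed coat.

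The regulators were highest mainly in the seed coat. Among the 17 copies that reached 5 FPKM in a compartment, 7 were highest in the inner seed coat, 6 in outer seed coat, 1 in chalazal proliferating tissue, 2 in embryo proper and 1 in micropylar endosperm. None was highest in the peripheral or chalazal endosperm. Of the 41502 compared genes at this level, 10.7% were highest in the inner seed coat, 10.1% in outer seed coat, 16% in chalazal proliferating tissue, 21.9% in embryo proper, 18.7% in micropylar, 10.1% in peripheral and 12.5% in chalazal endosperm. In dissected tissue, fewer cells of a type and less RNA per cell cannot be told apart. A copy was counted as higher or lower where the mean of log2(FPKM + 1) differed by at least 1 unit (2-fold) and the higher side averaged at least 5 FPKM, a threshold of size that carries no error rate.

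By this rule 9 of the 21 compared copies were higher and 0 lower in maternal than in filial compartments, where 16.9% of all 54278 compared genes were higher and 10.1% lower. The 9 comprised all 6 MYB61 copies, both TT2 copies and 1 TTG2 copy. Without the floor of 5 FPKM the count was 14, for which the share of all genes was not computed. The median difference of the 21 copies was 1.44 log2, against 0.17 over all compared genes. In 8 of the 21 copies each maternal column lay above each filial column, as it did in 6.19% of all compared genes.

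**Figure D2:**
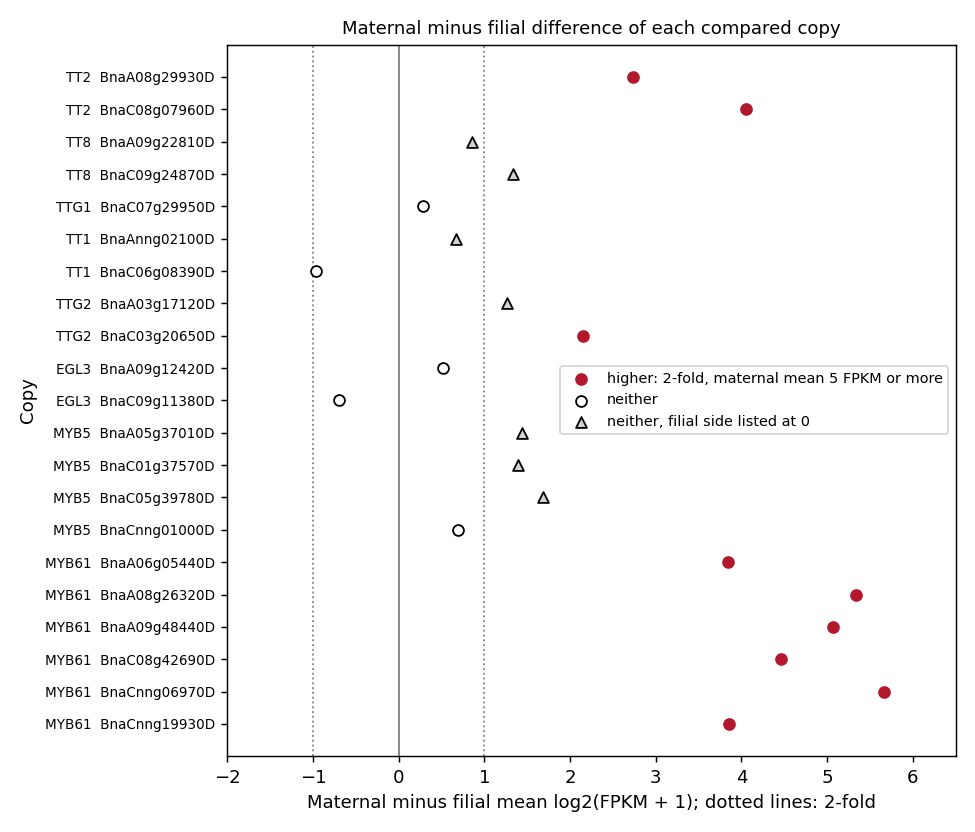
Maternal minus filial difference in mean log2(FPKM + 1) for the 21 compared copies, with dotted lines at 2-fold. The 9 filled points are the copies counted as higher, and triangles are the 7 copies listed at 0 in each filial compartment. All positions, those of the filled points included, depend on the pseudocount of 1. With 0.1 in its place, BnaCnng06970D moved from 5.66 to 8.34 log2.

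TT2, the MYB subunit that gives the complex its target choice, had a single copy on each subgenome. The A copy BnaA08g29930D (A08 random, 1033623 to 1034627) had 2 FPKM in chalazal proliferating tissue, 72 in inner seed coat and 6 in outer seed coat, against 8 in embryo proper and 0 in each endosperm region. The C copy BnaC08g07960D (C08, 11760227 to 11761328) had 7, 81 and 19 FPKM in these maternal compartments in the same order, against 3 in embryo proper and 0 in each endosperm region. Both copies were therefore highest in the inner seed coat, and neither was seen in endosperm.

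The inner seed coat exceeded the outer by 3.38 log2 for the A copy of TT2 and by 2.04 for the C copy. In the inner seed coat the subgenomes were close, the A copy holding 47.1% of the TT2 sum, but it held 24% in outer seed coat and 72.7% in embryo proper. The sides of the maternal and filial comparison overlapped for the A copy, since the embryo proper lay above the chalazal proliferating and outer seed coat columns, and did not for the C copy. Their differences were 2.73 and 4.06 log2, A copy first, and 5.02 and 6.56 with a pseudocount of 0.1.

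The bHLH partner TT8 was near the lower limit of the table. BnaA09g22810D (A09, 15413835 to 15417502) had 2 FPKM in chalazal proliferating tissue, 1 in inner seed coat and 0 in outer seed coat, and BnaC09g24870D (C09, 23189258 to 23192055) had 1, 1 and 3 FPKM. Both were listed at 0 in all 4 filial compartments. A further model of 405 bases, BnaC09g24860D, lies 12534 bases before the C copy and was listed at 0 in all 8 columns. Among the 7 compartments TT8 was thus detected in maternal ones only, at levels where the whole-number steps are as large as the differences.

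EGL3, the other bHLH member, was the best match of 8 gene models, from 246 to 1988 bases long. BnaC09g11380D (C09, 7958140 to 7961240) was the highest of them, with 2 FPKM in outer seed coat and 0 in the other maternal compartments, against 5 in embryo proper, 4 in micropylar endosperm and 0 in peripheral and chalazal endosperm. BnaA09g12420D had 4 FPKM in outer seed coat, against 1 in chalazal endosperm and 0 in the other compartments, and BnaAnng39960D had 2 FPKM in outer seed coat alone. The remaining 5 models reached at most 1 FPKM. The leading EGL3 copy was thus seen in the embryo, micropylar endosperm and outer seed coat columns, and not in the inner seed coat. The micropylar endosperm column also held the embryo markers given above, and their part in the EGL3 level was not tested.

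TTG1, the WD-repeat subunit, was the most evenly spread regulator and came almost wholly from a single copy. BnaC07g29950D (C07, 34617181 to 34625055) had 3 FPKM in chalazal proliferating tissue, 10 in inner and 9 in outer seed coat, against 11 in embryo proper, 1 in micropylar endosperm and 7 in each of the peripheral and chalazal endosperm. Maternal and filial columns overlapped, with a difference of 0.28 log2 that became -0.27 without the micropylar endosperm. The other 3 TTG1 models, of 309 to 639 bases, reached at most 1 FPKM.

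Set side by side, the transcripts of the subunits of the complex had unequal levels in each compartment, and protein was not measured. Summed over copies on the FPKM scale, which is per length, the inner seed coat held 153 FPKM of TT2, 2 of TT8, 0 of EGL3 and 10 of TTG1. The outer seed coat held 25 of TT2, 30 of MYB5, 3 of TT8, 8 of EGL3 and 9 of TTG1. The chalazal proliferating tissue held 9 of TT2, 0 of MYB5, 3 of TT8, 2 of EGL3 and 4 of TTG1. Among filial compartments the embryo proper held 11 of TT2, 6 of EGL3 and 11 of TTG1 but 0 of TT8 and MYB5, and the 3 endosperm regions held 0 of TT2 and TT8.

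TT1, the zinc finger member, stood apart from the others. The copy BnaC06g08390D (C06, 9366611 to 9368346) had 3 FPKM in chalazal proliferating tissue and 0 in inner and outer seed coat, against 29 in micropylar endosperm, 2 in chalazal endosperm and 0 in embryo proper and peripheral endosperm. The other copy, BnaAnng02100D, had 1 FPKM each in chalazal proliferating tissue and inner seed coat and 0 elsewhere. TT1 was thus all but absent from both seed coat layers, and 80.6% of its summed level over the 7 compartments lay in the micropylar endosperm column. That column also held the 317 FPKM of vascular and 97 FPKM of embryo markers given above, the latter from LEC1 and LEC2 only. Their part in the TT1 level was not tested.

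**Figure D3:**
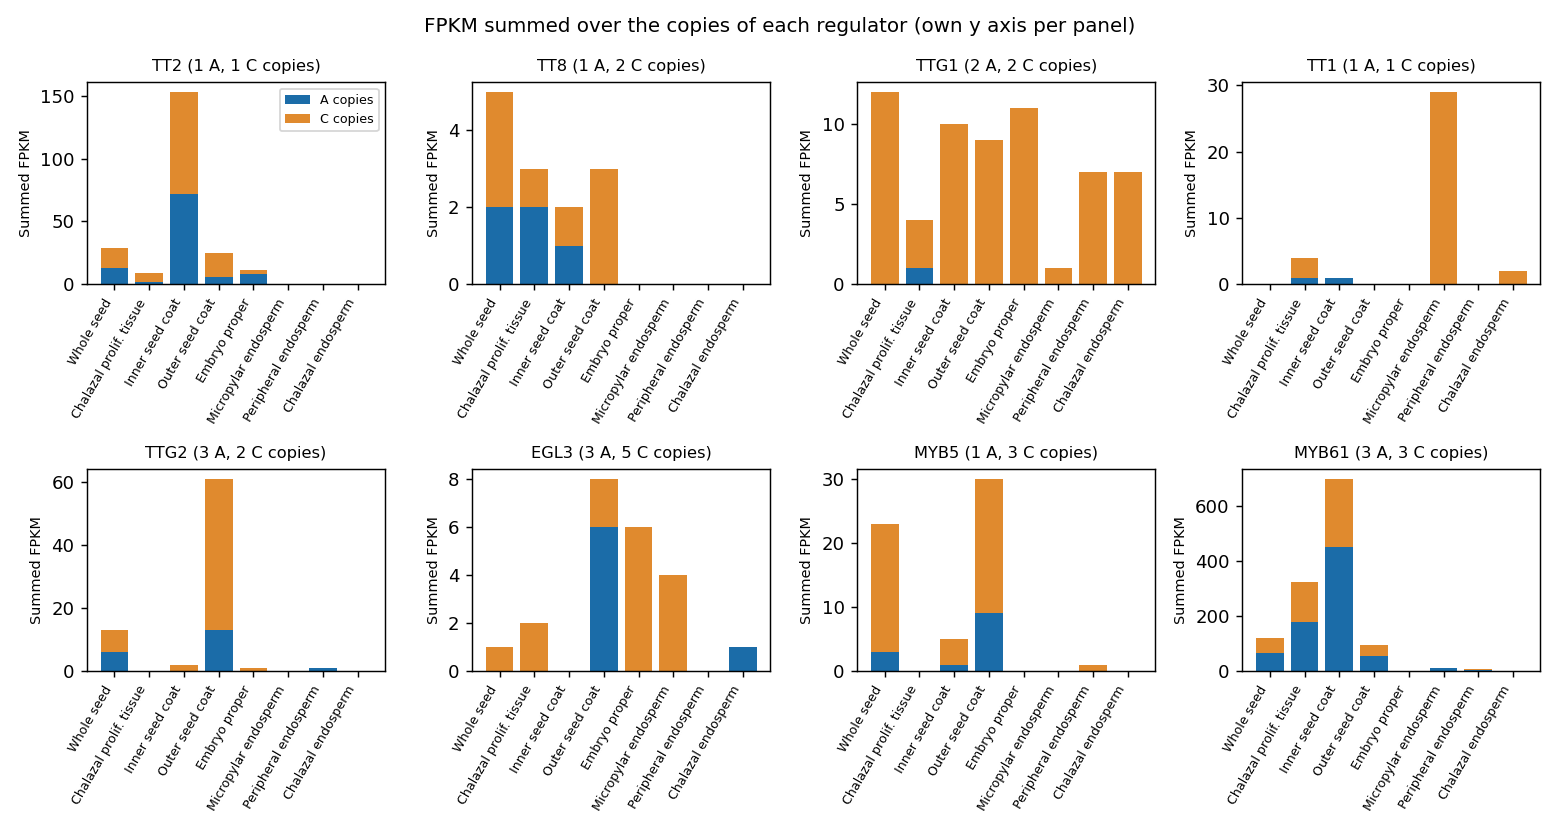
FPKM summed over the copies of each regulator in the whole seed and the 7 compartments, with A copies in blue and C copies in orange and an own axis for each panel. TT2 and MYB61 peak in the inner seed coat at 153 and 699 FPKM, TTG2 and MYB5 in outer seed coat at 61 and 30, and TT1 in micropylar endosperm at 29.

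TTG2, the WRKY member, was an outer seed coat gene in this set. BnaC03g20650D (C03, 10964534 to 10966673) had 0 FPKM in chalazal proliferating tissue, 2 in inner and 48 in outer seed coat, against 1 in embryo proper and 0 in each endosperm region. BnaA03g17120D (A03, 8032143 to 8033667) had 13 FPKM in outer seed coat and stood at 0 in the remaining 6. A neighbouring model 632 bases downstream, BnaA03g17130D, had 1 FPKM in peripheral endosperm and 0 elsewhere. The copies on A05 and C04 were at 0 in all 7 compartments and at 1 FPKM in the whole seed.

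MYB5 followed the same layer at lower levels. The A copy BnaA05g37010D (A05 random, 2845240 to 2846785) had 0 FPKM in chalazal proliferating tissue, 1 in inner and 9 in outer seed coat. Among C copies, BnaC05g39780D (C05, 38204772 to 38206028) had 0, 2 and 10 FPKM in the same order, BnaC01g37570D had 0, 2 and 5, and BnaCnng01000D had 0, 0 and 6. In the filial compartments all 4 copies were at 0, except for 1 FPKM of BnaCnng01000D in the peripheral endosperm. The 4 copies thus shared the outer seed coat as their highest compartment, and the sum of the locus was 97.2% maternal.

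Set against the other 6 compartments, the outer seed coat was higher for 11 of the 21 copies and lower for 1, where 14.8% of all compared genes were higher and 10.4% lower. The 11 were all 4 MYB5 copies, 2 of TTG2, 4 of MYB61 and the C copy of TT2, and the copy counted as lower was the TT1 copy BnaC06g08390D. The inner seed coat was higher for 8 copies, the 6 of MYB61 and 2 of TT2, and lower for the same TT1 copy, against 15.4% and 6.99% of all compared genes. The lower call of TT1 in both layers rested on the micropylar endosperm: without that column it was lost in each.

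The direct comparison of the seed coat layers split the regulators by gene. The inner seed coat was higher than the outer for 8 copies and lower for 6, with 11.7% of all compared genes higher and 9.03% lower. All 6 MYB61 and both TT2 copies were on the inner side, with differences from 1.82 log2 in BnaCnng06970D to 4.71 in BnaA09g48440D. All 4 MYB5 copies and the 2 expressed TTG2 copies were on the outer side, and the largest of these differences with a value above 0 in both layers was -4.03 log2, in BnaC03g20650D. No locus had copies on both sides.

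**Figure D4:**
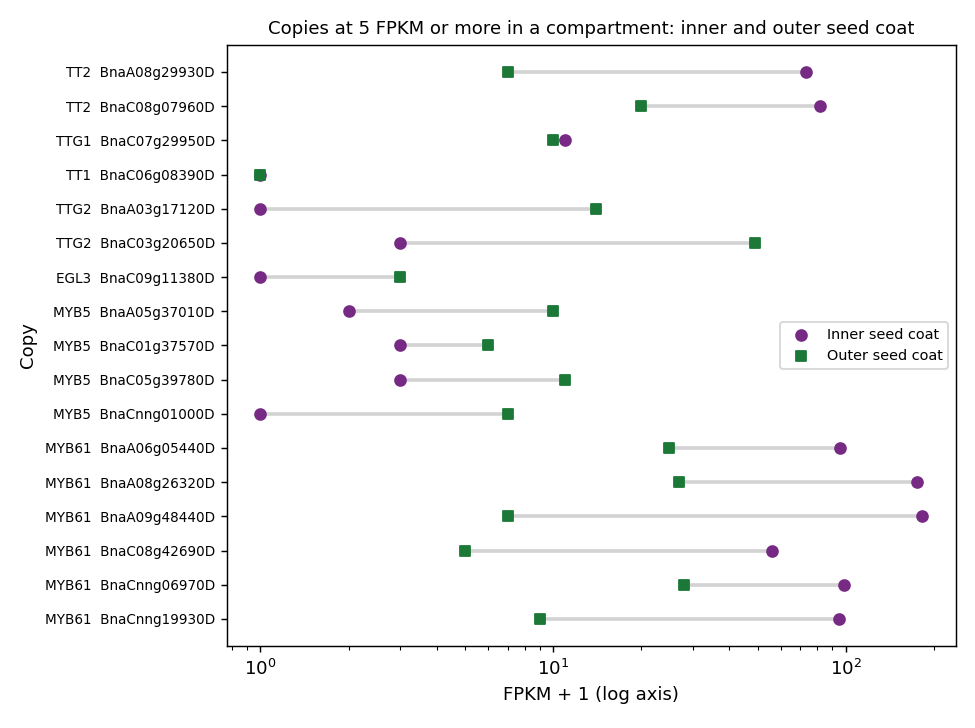
FPKM + 1 on a log axis in the inner and outer seed coat for the 17 copies at 5 FPKM or more in a compartment. Inner values (circles) lie to the right for TT2 and MYB61, outer values (squares) to the right for TTG2 and MYB5.

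MYB61 was the most abundant of the regulators, with 6 copies that all reached 55 FPKM or more in the inner seed coat. BnaA08g26320D (A08, 17848760 to 17850437) had 89 FPKM in chalazal proliferating tissue, 175 in inner and 26 in outer seed coat, against 0 in embryo proper, 5 in micropylar, 1 in peripheral and 0 in chalazal endosperm. BnaA09g48440D (A09, 32443078 to 32444689) had 83, 182 and 6 FPKM in the maternal compartments in that order, BnaCnng06970D had 78, 98 and 27, and BnaC08g42690D had 63, 55 and 4. In the filial compartments these last 3 copies did not exceed 1 FPKM. For each of the 6 copies all maternal columns lay above all filial ones.

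The MYB61 copies differed from each other in the chalazal proliferating tissue. BnaA06g05440D (A06, 3091505 to 3093118) had 5 FPKM there, 95 in inner seed coat and 24 in the outer, and BnaCnng19930D had 5, 94 and 8. The chalazal proliferating tissue was thus lower than the inner seed coat in this pair, with differences of -3.98 log2 or below, whereas the other 4 copies had differences between -1.12 and 0.19. Over the 7 compartments the pair had a Pearson correlation of log2(FPKM + 1) of 0.938, against 0.736 to 0.893 between either of them and the other 4 copies, and 0.927 to 0.985 among those 4. These are descriptions over 7 columns, with all copies measured in the same libraries. How reads shared by similar copies were divided is not given in the sources used here.

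Against the inner seed coat, the chalazal proliferating tissue was higher for 0 copies and lower for 6, with 10.3% and 11.9% of all compared genes. The 6 were 3 MYB61 copies, both TT2 copies and TTG1. Set against the other 6 compartments, it was higher for 4 copies, all MYB61, and lower for 1 TTG2 copy, against 16.5% and 11.2% of all compared genes. With a pseudocount of 0.1 the 4 became 7 copies, for which the share of all genes was not computed.

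In filial tissue few copies were counted as higher than elsewhere. Against the other 6 compartments, the embryo proper was higher for 2 copies, the TT2 A copy at 8 FPKM and the EGL3 copy BnaC09g11380D at 5, and lower for 7, with 20.1% and 17.2% of all compared genes. The micropylar endosperm was higher for 1 copy, of TT1, and lower for 8, with 19.4% and 18.2% of all genes. The peripheral endosperm was higher for 0 and lower for 10 (13.7% and 11.4% of all genes), and the chalazal endosperm for 0 and 9 (13.6% and 15.5%). Both embryo calls were lost under scaling of the columns to a common median.

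A and C copies were also compared as sums within a compartment. In the outer seed coat the A copies of TTG2 summed to 13 FPKM and the C copies to 48, a difference of -1.81 log2. For MYB5 the single A copy had 9 FPKM there and the 3 C copies 21, a difference of -1.14 log2, while the highest single copy of each differed by -0.14 log2. For MYB61 in inner seed coat the 3 A copies summed to 452 FPKM and the 3 C copies to 247, or 0.87 log2. TTG1 came from the C copy, apart from 1 FPKM of an A model in chalazal proliferating tissue.

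Whole seeds, profiled without dissection, held most of the regulators. The whole seed column differed in make-up from the dissected ones: rRNA and organelle genes held 0.00762% of its FPKM, against 4.16% to 36.9% in the compartments, and its FPKM summed to 655846, against 760254 to 2283005. The part of this in the values of this comparison was not tested. In whole seed, summed MYB61 was at 120 FPKM, against a mean of 162 FPKM over the 7 compartments, and TT2 was at 29 against 28.3. TTG2 was at 13 FPKM in whole seed against 9.29, TTG1 at 12 against 7, MYB5 at 23 against 5.14 and TT8 at 5 against 1.14. EGL3 was at 1 FPKM in whole seed against 3, and TT1 was listed at 0 against 5.14, with 29 FPKM in micropylar endosperm. In TT8 and TTG1 the whole seed sum lay above the highest compartment, at 5 against 3 and 12 against 11 FPKM, and the MYB5 copy BnaC01g37570D was at 10 FPKM in whole seed against at most 5.

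By the same threshold, which averages logs, whole seed was higher than the 7 compartments for 12 copies and lower for 0, with 16.1% and 9.6% of all compared genes. The 12 were the 6 MYB61 copies and 2 each of TT2, TTG2 and MYB5. A regulator that is high in few columns gives a low mean of logs over the compartments.

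Target genes of the complex known from Arabidopsis differed in whether they peaked with TT2. Summed over copies, the late pathway gene BAN had 56 FPKM in chalazal proliferating tissue, 1 in inner and 0 in outer seed coat, against 14 in micropylar endosperm and at most 2 in the other filial compartments. The reductase TT3 had 45, 4 and 0 FPKM in the maternal compartments in that order, and the dioxygenase LDOX had 32, 13 and 0. The transferase TT19 had 8, 80 and 5 FPKM and the vacuolar transporter TT12 had 6, 36 and 0, so these were highest where TT2 was. In whole seed BAN stood at 172 FPKM, above its level in each of the 7 compartments, and TT3, LDOX and the proton pump AHA10 were also above each compartment, at 83, 90 and 26 FPKM. The same held for the flavonoid genes TT4, TT5 and TT6, at 378, 155 and 104 FPKM, so it was not particular to the genes named first. The remaining genes of the flavonoid list, TT12 and TT19 among them, were not above each compartment.

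Across the 7 compartments the Pearson correlation of log2 summed FPKM with TT2 was -0.10 for BAN, -0.05 for TT3, 0.35 for LDOX, 0.67 for TT12 and 0.74 for TT19. TTG2 and MYB5 had a correlation of 0.95 with each other, and of 0.98 and 0.96 with GL2, a homeodomain factor of the epidermis. Several points of each correlation are at 0, and all share the columns, so these values describe the table and are not tested.

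**Figure D5:**
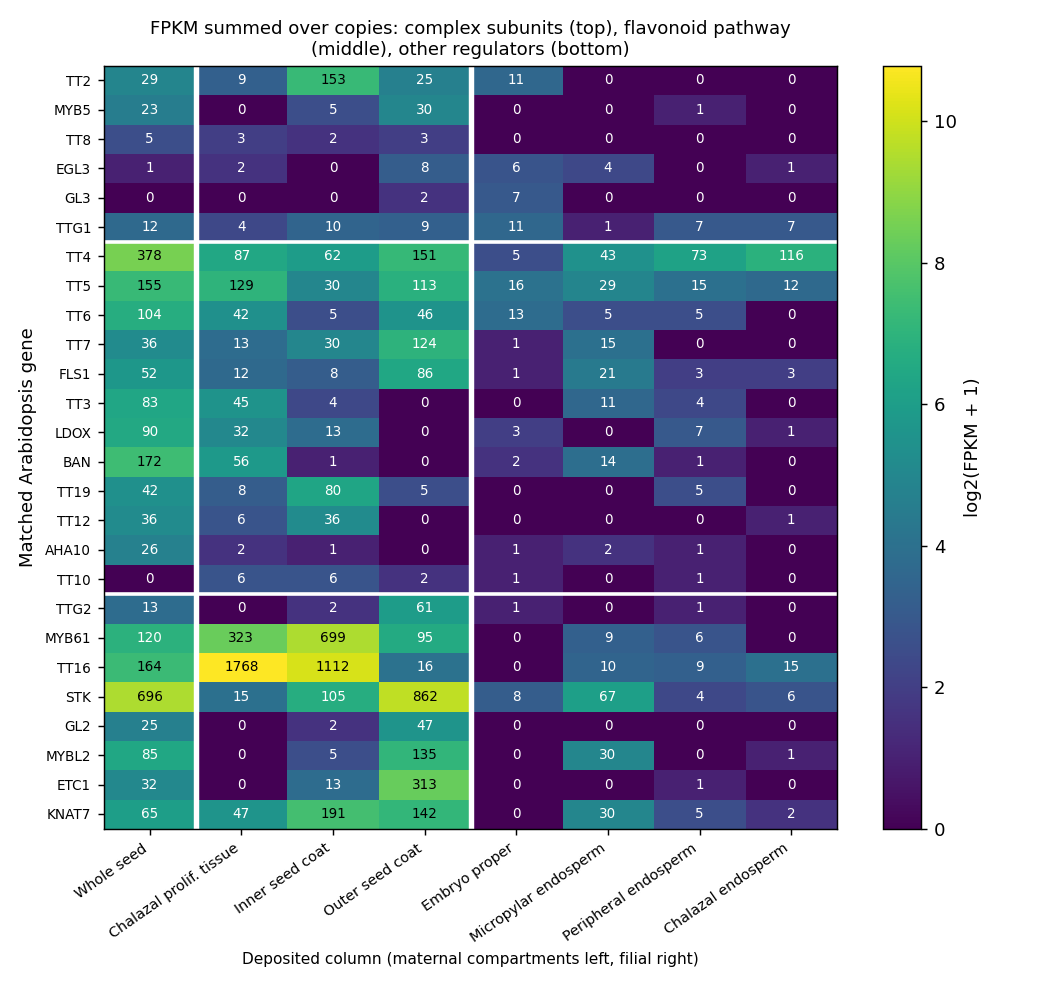
FPKM summed over copies for subunits of the MYB, bHLH and WD-repeat complex, for flavonoid pathway genes and for other regulators; colour is log2(FPKM + 1) and cell numbers are FPKM. TT2 is at 153 FPKM in inner seed coat, where BAN is at 1, while TT19 and TT12 are at 80 and 36.

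Wider gene lists were compared in the same way. Of 53 compared copies of other seed coat and epidermal regulators, 28 were higher and 0 lower in maternal than in filial compartments, with a median difference of 1.79 log2, where 16.9% of all compared genes were higher, 10.1% were lower and the median was 0.17. TT16, the MADS factor of the inner seed coat, supplied the largest differences, among them BnaC02g41690D with 259, 217 and 7 FPKM in chalazal proliferating, inner and outer columns against at most 2 in filial tissue. Of the single-repeat MYB inhibitors of the complex, ETC1 was at 313 FPKM and TRY at 39 in outer seed coat, whereas CPC was at 0 there and at 3 in each of the other maternal compartments. In the same layer the repressor MYBL2 had 135. GL3, another bHLH partner, reached only 2 FPKM in outer seed coat and 7 in embryo proper, and GL1, MYB23 and MYB90 were listed at 0 in all 7 compartments.

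Of 50 compared flavonoid and proanthocyanidin copies, 18 were higher and 0 lower on the maternal side, with a median of 1.17 log2, against the same 16.9% and 10.1% of all compared genes. The hydroxylase TT7 copy BnaA10g23330D led them with 13, 30 and 117 FPKM in chalazal proliferating, inner and outer columns, against 15 in micropylar endosperm and 0 in the other filial compartments. Set against the other 6 compartments, 25 copies of this list were higher and 1 lower in chalazal proliferating tissue, where 16.5% and 11.2% of all compared genes were. In outer seed coat 15 were higher and 3 lower (14.8% and 10.4% of all genes). In inner seed coat 9 were higher and 0 lower (15.4% and 6.99%), so the higher count there was near the background. Of 31 mucilage copies, 3 were higher and 1 lower on the maternal side, with a median of 0.36, both counts below the 16.9% and 10.1% of all compared genes. The 2 SBT1.7 copies among those 3, of a subtilase that trims mucilage, were at 91 and 191 FPKM in chalazal proliferating tissue and at 14 and 26 in outer seed coat. In the same order they were at 132 and 44 FPKM in inner seed coat and at 66 and 70 in embryo proper.

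Genes whose pattern over the 7 compartments was most like that of each leading copy, by Pearson correlation of log2(FPKM + 1), were sought among 19612 genes that reached 20 FPKM in at least 1 compartment. For the TT2 copy BnaC08g07960D, 33 genes had a correlation of at least 0.95, and the closest were BnaC09g48040D, a calmodulin-binding protein relative (0.995), BnaC09g53100D, a membrane-associated band 7 domain protein (0.986), and BnaA02g28040D of the melibiase family (0.983). For the TTG2 copy BnaC03g20650D there were 112, led by a lipase homolog, BnaC05g47350D, at 84 FPKM in outer seed coat (0.999), an acyltransferase, BnaA03g18270D (0.998), and BnaA07g32940D of unknown function (0.997). For the MYB61 copy BnaA08g26320D there were 107, led by a splicing factor homolog, BnaC03g00890D (0.998), a phosphatidylinositol transfer protein, BnaC06g24230D (0.996), and an SHV3-like protein, BnaA05g20420D, at 661 FPKM in chalazal proliferating tissue and 2439 in inner seed coat (0.995).

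The EGL3 copy BnaC09g11380D, with 53 genes at 0.95 or more, was closest to epidermal genes, the protodermal factor homologs BnaC03g30030D (0.998) and BnaC04g48550D (0.990), and to BnaC05g13380D of an uncharacterised family (0.990). This copy had 2 FPKM in outer seed coat, 5 in embryo proper, 4 in micropylar endosperm and 0 in the other compartments, so the likeness rests on few steps. BnaC03g30030D had 8 FPKM in outer seed coat, against 24 in embryo proper and 15 in micropylar endosperm. The MYB5 copy BnaC05g39780D, with 121 genes at 0.95 or more, was closest to a dirigent-like protein, BnaA06g00450D, an ascorbate oxidase, BnaA10g14500D, and a lipoxygenase, BnaA08g23120D (1.000 each). These rest on values above 0 in inner and outer seed coat only. Less close matches were found for TTG1, with 11 genes at 0.95 or more led by BnaC03g55820D (0.972), and for the TT1 copy BnaC06g08390D, with 20 led by BnaC01g06150D (0.982). TT8 peaked at 3 FPKM, so its nearest genes, led by BnaC06g40000D (0.997), rest on very few steps.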

How the data were processed

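The 22 libraries came from total RNA of dissected compartments and whole seeds; the labels name an Ambion extraction reagent and the NuGen Ultralow system. The submitters' processing notes name Trimmomatic 0.36, HISAT2 and Cufflinks, without roles, and the genome build is not given in the sources used here. The values are a score, namely FPKM that the authors deposited as whole numbers, with 1 column per group. No unit heads the whole seed column, which was read as FPKM by its scale. Deposited gene lengths, in bases, are the column of other unit. The labels give whole seed a maternal source, but it holds all tissues and was kept apart. A further 1 column matched no sample and was not used.

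Of 101040 genes, 593 without compartment values were left out. Positions are those of the table with starts moved by 1. Differences are of mean log2(FPKM + 1), and 11 comparisons were made. The plan named limma should the table hold a column per library; it holds 1 per group, so no test could be run. Named genes were all copies of the 8 loci, up to 3 copies a list with the largest and 2 with the lowest maternal minus filial difference, and the 3 genes most like each leading copy, the one with the highest mean. Genes named outside this rule, such as ETC1 and BAN, were chosen after their values were seen. The members and lists were chosen with earlier results of these data known. The calling code was checked on simulated data. Alternatives were a pseudocount of 0.1, other filters, scalings and thresholds, and omission of the micropylar endosperm. Software was matplotlib 3.10.9, pandas 2.3.3, numpy 2.4.6 and Python 3.11.15.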

Additional observations from a re-analysis of the deposited data

How the results depend on the processing

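No paired analysis was possible because the table holds 1 combined column per group, and leaving out replicates was not run for the same reason. The share of all compared genes counted was not computed under the alternatives, so their counts stand without a background. The maternal minus filial counts of 9 higher and 0 lower became 14 higher without the floor and 1 lower with a pseudocount of 0.1, and the inner minus outer counts of 8 and 6 stayed within 1.5 times under each alternative run. The median of all genes for maternal minus filial, 0.17 as deposited, was 0.44 with a common median and 0.39 with a common sum. Without the micropylar endosperm, the maternal minus filial difference turned to 0.14 for the TT1 copy BnaC06g08390D, against -0.96 with it, and to -0.27 for the TTG1 copy BnaC07g29950D.

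Other counts against the remaining compartments also moved. The 11 higher in outer seed coat ranged from 9 at 2 log2 units to 14 with a common sum. In chalazal proliferating tissue the 4 higher became 7 with a pseudocount of 0.1, and the 1 lower became 2 under quantile normalisation, with a common sum, without the micropylar endosperm or without the floor, and 0 at 2 log2 units. The 1 lower in inner seed coat and the 1 lower in outer seed coat became 0 with a common median, a filter of 5 FPKM, 2 log2 units or no micropylar endosperm, and in the inner layer it was 2 without the floor. The 2 higher in embryo proper became 0 with a common median or at 2 log2 units and 1 under quantile normalisation or a filter of 5 FPKM. The 1 higher in micropylar endosperm became 0 with a filter of 5 FPKM and 2 without the floor. At 2 log2 units the 10 lower in peripheral endosperm became 3 and the 12 higher in whole seed became 5. Without the floor, chalazal proliferating tissue minus inner seed coat gave 1 higher and 10 lower, and whole seed 1 lower.

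Taking the highest copy of each subgenome, A minus C in outer seed coat was 0.74 for EGL3 (sum 1.22) and -0.14 for MYB5 (sum -1.14). The lowest likeness among the named genes was 0.865 by Spearman and 0.878 without the micropylar endosperm for TTG1, and 0.883 by Spearman for TT1. The cause of these changes was not tested. Whole-number FPKM limits what can be read from TT8, EGL3 and MYB5.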
